A study of Drosophila melanogaster with 33 samples.

Results

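Genes of DNA replication and the cell cycle, 10 in number (Mcm2, Mcm3, Mcm5, Mcm6, Mcm7, PCNA, dup, CycE, CycA and CycB), were followed across the RNA-seq libraries of a Drosophila melanogaster study of the RNA-binding protein Ataxin-2 (Atx2). They were taken by name from the gene count files, where 10 of 10 were found among 16727 gene symbols. The libraries were of 4 groups with 3 replicates each. The Gal4 control brain carried elav-Gal4, a driver active in post-mitotic neurons, and the Atx2 RNAi brain carried that driver with a UAS-Atx2-RNAi transgene. Per the study's methods both were combined with tub-GAL80ts, so that RNAi ran only in young adults that had been shifted to the warm temperature for several days. Each brain library was a pool of dissected brains, and glia and other cells that lack elav-Gal4 were in the pool. The mock S2 libraries came from S2 cells, a dividing line of embryonic, hemocyte-like origin, treated with double-stranded RNA against GFP, and the remaining group was S2 cells treated with double-stranded RNA against Atx2. Nothing in the labels says that replicates came from separate cultures, so p-values measure the spread between these samples, which may be technical. A further 12 brain libraries, in which forms of Atx2 were fused to an RNA-editing domain (TRIBE), were used for one other readout. Per the study's methods these fusions were expressed with elav-Gal4 and tub-GAL80ts. The forms were wild-type Atx2, Atx2 with a domain deleted, and its Lsm and LsmAD domains alone (Lsm+LsmAD). The deleted domain was Lsm, LsmAD, the middle disordered region (mIDR) or the C-terminal one (cIDR).

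Before a cell can copy its DNA, origins are licensed: the origin recognition complex, Cdc6 and Dup (the fly Cdt1) load rings of the MCM proteins, Mcm2 to Mcm7, which later become the helicase that unwinds DNA at the fork. Cyclin E with Cdk2 starts S phase, PCNA is the sliding clamp that holds the polymerases on DNA, and Cyclin A and Cyclin B with Cdk1 carry the cell through G2 into mitosis. Adult fly neurons have left the cell cycle, and very few cells of the adult brain divide, whereas S2 cells in culture divide continuously. In bulk libraries such as these, fewer dividing cells and less mRNA per cell cannot be told apart.

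The libraries held between 11169973 and 16108727 counts. Gal4 control brain 1 stood apart, with 11.2% of its reads not placed uniquely against 1.47% to 1.77% in the other brain libraries, and each brain result was therefore also computed without it. Neuron markers summed to between 22110 and 26345 CPM (counts scaled to library depth with TMM factors, a trimmed-mean scaling) in the Gal4 control brain and between 67.0 and 69.7 CPM in mock S2 cells. All 9 hemocyte and S2 line markers had counts in each mock S2 library, but their sum of 788 to 809 CPM was below that of the Gal4 control brain (906 to 2260 CPM), with 4 of the 8 tested higher in S2 cells and 4 lower, so this list did not tell the sources apart. The targeted gene was examined in every library. Atx2 stood at 349, 358 and 379 CPM in the Gal4 control brain and at 237, 301 and 309 CPM in the Atx2 RNAi brain, with no overlap, and the log2 fold change was −0.34 (SE 0.12; edgeR adjusted p = 0.0584, and 0.0137 with DESeq2). The transgene marker w rose from 88.2–94.3 CPM to 481–759 CPM in the same libraries (log2 fold change 2.81, SE 0.18; edgeR adjusted p = 1.84e-04). In S2 cells the order was opposite to the label: Atx2 stood at 192, 191 and 198 CPM in mock cells and at 839, 575 and 692 CPM in the libraries labelled Atx2 RNAi (log2 fold change 1.88, SE 0.09; edgeR adjusted p = 5.3e-11). The double-stranded RNA given to these cells carries Atx2 sequence, so the count need not stand for Atx2 mRNA, and whether that RNA gave reads was not tested. Those libraries are called the S2 libraries labelled Atx2 RNAi throughout, and every S2 response below is a difference between these labels.

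All 10 genes were higher in mock S2 cells than in the Gal4 control brain, and no brain library overlapped any S2 library. Among all 9221 genes tested 42.7% were called higher and 45.1% had groups apart in this direction, so such a call is common between these sources. Source and batch cannot be told apart in any comparison of brain with S2 libraries. The log2 fold change over the 10 genes had a median of 5.71, against −0.07 over all genes tested. It was smallest for CycE, at 2.92 (SE 0.12), a 7.57-fold difference, and largest for CycB, at 9.13 (SE 0.17), a 562-fold difference. The edgeR adjusted p was at most 1.92e-07. Mcm2, Mcm7, PCNA and CycB passed the filter on low counts through the S2 libraries only, so their inclusion itself required a difference.

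**Figure D1:**
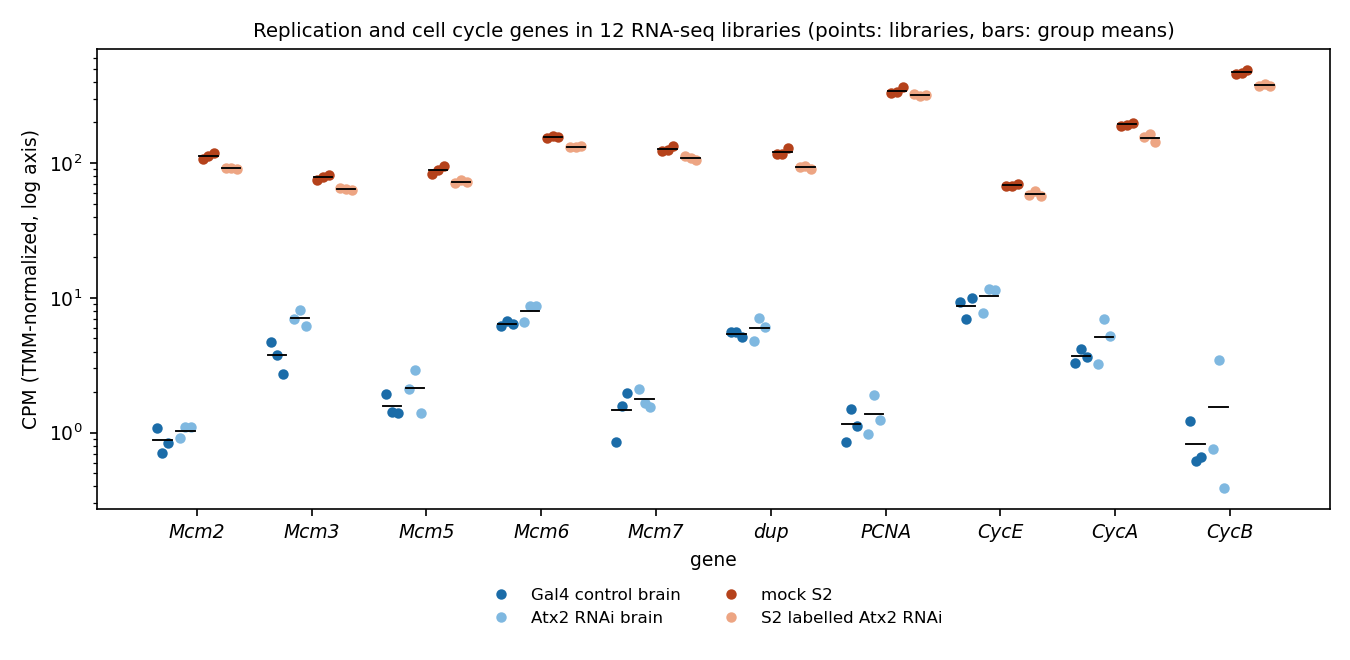
CPM (TMM-normalized, log axis) of the 10 genes in each of the 12 RNA-seq libraries, with points for libraries and bars for group means. Every S2 point of a gene lies above every brain point of that gene, and the Atx2 RNAi brain 2 point for CycB, at 3.48 CPM, lies well above its own replicates.

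The genes that load and form the MCM ring separated by different amounts. Dup, which brings the ring to the origin (gene FBgn0000996, dm6 chr2R:15376619-15380988, minus strand), stood at 5.57, 5.57 and 5.16 CPM in the Gal4 control brain and at 117, 118 and 129 CPM in mock S2 cells. This was a log2 difference of 4.42 (SE 0.09). Its brain values lay close together, at 46 to 63 counts per library.

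Mcm2, a ring subunit (FBgn0014861, chr3R:8264970-8267924, plus strand), was low in brain, at 1.09, 0.707 and 0.844 CPM, and reached 107, 113 and 119 CPM in mock S2 cells. The brain values rested on only 8 or 9 counts per library. The difference of 6.97 on the log2 scale (SE 0.13) was the largest of the MCM subunits among the 10 genes. Mcm7 (FBgn0020633, chr3L:8891596-8894310, plus strand) followed with 6.33 (SE 0.18): it stood at 0.848, 1.59 and 1.97 CPM in brain and at 123, 126 and 133 CPM in S2 cells. Its spread in brain came with 7, 18 and 21 counts, the 7 being from Gal4 control brain 1. Mcm5 (FBgn0017577, chr3R:10788524-10791150, plus strand) rose from 1.94, 1.41 and 1.41 CPM in brain to 83.3, 89.4 and 95.8 CPM in S2 cells, a log2 difference of 5.78 (SE 0.13).

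The remaining ring subunits had more counts in brain and smaller differences. Mcm6 (FBgn0025815, chrX:6674387-6677176, plus strand) stood at 6.18, 6.71 and 6.37 CPM in the Gal4 control brain and at 154, 158 and 155 CPM in mock S2 cells, a log2 difference of 4.54 (SE 0.08). Mcm3 (FBgn0284442, chrX:5323855-5326738, plus strand) stood at 4.72, 3.80 and 2.72 CPM in brain and at 75.5, 78.2 and 81.8 CPM in S2 cells, a log2 difference of 4.35 (SE 0.16). Exons of Mcm3 are overlapped on the other strand by CG3309, which went the other way, with a log2 difference of −0.91 (SE 0.12). SRPK, which overlaps dup in the same way, was also lower in S2 cells (−1.04, SE 0.07).

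PCNA, the clamp (FBgn0005655, chr2R:20261754-20262883, minus strand), showed the second largest separation. It stood at 0.848, 1.50 and 1.12 CPM in the Gal4 control brain, or 7, 17 and 12 counts, and at 332, 339 and 364 CPM in mock S2 cells. The log2 difference was 8.12 (SE 0.15), a 278-fold change.

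The cyclins spanned the whole range. Cyclin E, the G1/S cyclin (FBgn0010382, chr2L:15727581-15748150, minus strand), stood at 9.33, 6.98 and 9.94 CPM in brain and at 67.6, 67.9 and 70.3 CPM in mock S2 cells, the least separated of all. The non-coding gene CR44974, on the other strand of CycE, went the same way at far fewer counts, with 2, 0 and 1 in brain and 14, 18 and 29 in mock S2 cells (log2 difference 3.45, SE 0.66). Cyclin A, which acts in S phase and G2 (FBgn0000404, chr3L:11826719-11833578, minus strand), stood at 3.27, 4.15 and 3.66 CPM in brain and at 189, 193 and 198 CPM in S2 cells, a log2 difference of 5.64 (SE 0.10). Cyclin B, the mitotic cyclin (FBgn0000405, chr2R:22803521-22806948, minus strand), had 10, 7 and 7 counts in brain, or 1.21, 0.618 and 0.656 CPM, against 459, 465 and 489 CPM in S2 cells. The balance of the cyclins thus differed between the sources. The ratio of CycB to CycE within a library, in CPM and not scaled to length, was 0.109 to 0.215 in the Gal4 control brain and 11.2 to 11.5 in mock S2 cells.

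The comparison was repeated in the libraries labelled Atx2 RNAi, which the first did not use. Again all 10 genes were higher in S2 cells, with no overlap, where 42.1% of 9503 genes were called higher and 43% had groups apart in this direction. The order from CycB, at 7.93 (SE 0.40), through PCNA, Mcm2, Mcm7, Mcm5, CycA, Mcm6, dup and Mcm3 to CycE, at 2.52 (SE 0.14), was that of the control libraries. The median of the 10 genes was 4.98, against −0.15 over all genes tested. CycB had the widest SE, with 10, 44 and 5 counts in the 3 Atx2 RNAi brain libraries. It passed the filter on low counts through the S2 libraries only, so its inclusion itself required a difference. Its place at the top rested on single libraries: its value was 9.30 without Atx2 RNAi brain 2, 7.59 without Atx2 RNAi brain 1 and 7.46 without Atx2 RNAi brain 3, and in the last 2 of these PCNA was above it, at 7.64 and 7.78. In the alternatives tried for either comparison all 10 genes stayed called, and counting by library size alone in place of TMM moved the median of all genes by 0.65 in the control libraries and by 0.41 in those labelled Atx2 RNAi.

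**Figure D2:**
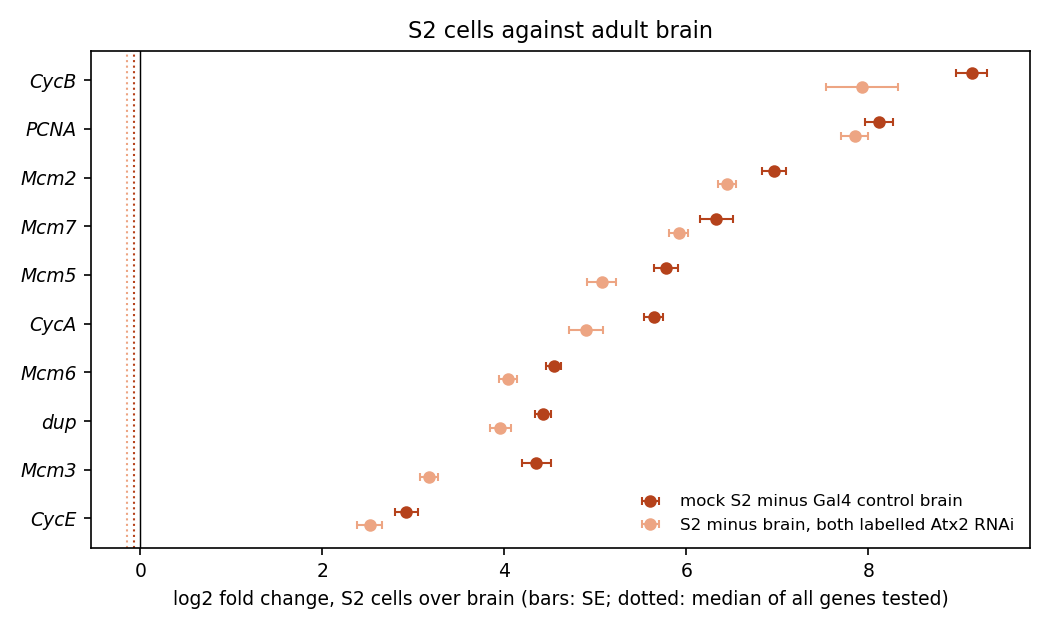
Log2 fold change of S2 cells over brain for the 10 genes, with SE bars, in the control libraries (dark) and in those labelled Atx2 RNAi (light), and dotted lines are the medians of all genes tested. All points lie at 2.52 or above, while the medians of all genes lie at −0.07 and −0.15.

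Levels of different genes were compared only after division by exon length, as CPM per kilobase. In mock S2 cells the order was PCNA at 323 ± 15.4 CPM per kb (SD, n = 3), CycB at 155 ± 5.20, CycA at 66.2 ± 1.62, Mcm6 at 55.9 ± 0.795, Mcm7 at 51.9 ± 2.17, Mcm2 at 39.0 ± 2.17, dup at 38.6 ± 2.10, Mcm5 at 36.5 ± 2.55, Mcm3 at 28.6 ± 1.16 and CycE at 13.6 ± 0.295. The libraries of neighbours in this order did not overlap, except for Mcm2 with dup and dup with Mcm5. Among genes tested in all libraries PCNA was at percentile 98.4 of length-scaled level and CycE at percentile 52.5. The brain order was different and mostly unresolved. It ran from Mcm6 at 2.30 ± 0.097 CPM per kb through CycE, dup, Mcm3, CycA and PCNA at 1.08 ± 0.307 to Mcm5, Mcm7, Mcm2 and CycB at 0.272 ± 0.109 (SD, n = 3), and of the neighbours only Mcm6 and CycE, and PCNA and Mcm5, had libraries that did not overlap. All 10 genes lay between percentiles 5.49 and 19.9 there.

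The MCM ring holds its subunits in equal numbers, so their mRNAs were also set side by side, with dpa, the fly Mcm4, added from the licensing list. Within a library the highest of these mRNAs exceeded the lowest by 2.62 to 2.74 times in mock S2 cells and by 6.73 to 10.3 times in the Gal4 control brain. The dpa mRNA was the highest in every library but Atx2 RNAi brain 3, where Mcm6 was, at 76.3 ± 2.24 CPM per kb in mock S2 cells and 2.52 ± 0.195 in the Gal4 control brain (SD, n = 3). The lowest was Mcm3 in all S2 libraries, whereas in brain it was Mcm2 in every library except Gal4 control brain 1, where it was Mcm7. The spread in brain includes counting error, since Mcm2 had fewer than 10 counts in each Gal4 control library.

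**Figure D3:**
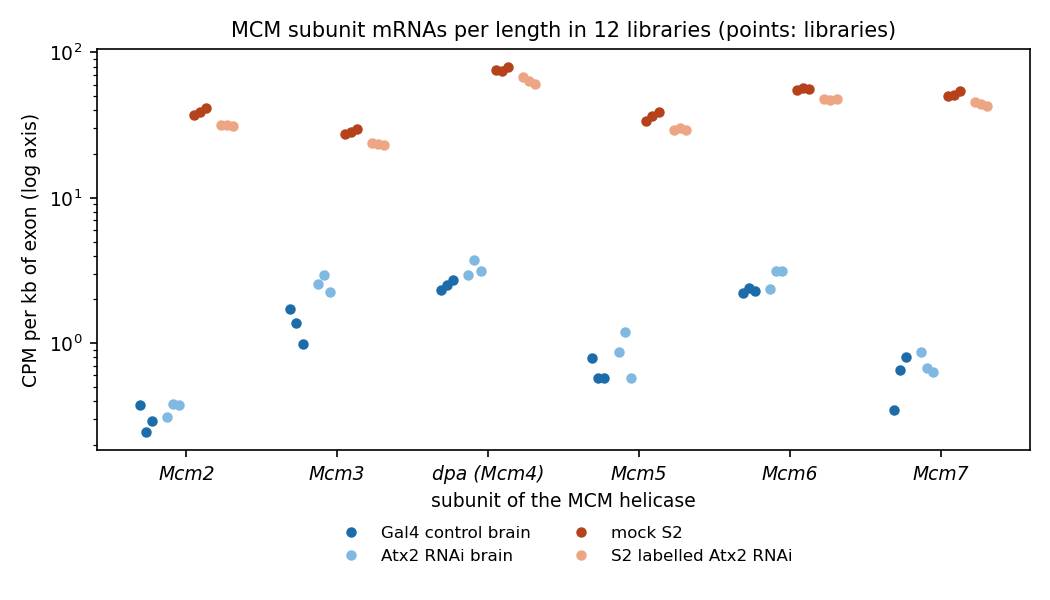
Length-scaled level (CPM per kb of exon, log axis) of the MCM subunit mRNAs in the 12 libraries, where each point is a library. Within mock S2 cells the subunits lie within 2.74-fold of each other, and within the Gal4 control brain they spread up to 10.3-fold.

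Around the 10 genes, 81 other replication and cell cycle genes were found of 84 listed, and 80 of them could be tested. In the control libraries 78 were higher in S2 cells and 2 were lower, where 42.7% of all 9221 genes tested were called higher. Of the 78, 26 passed the filter on low counts through the S2 libraries only, so their inclusion itself required a difference. They were spread unevenly over the lists, with many in mitosis and cytokinesis. The list medians below therefore cannot be ranked apart from the filter. Mitosis and cytokinesis genes (25 of 25 higher, median log2 fold change 5.74), nucleotide supply (5 of 5, 6.01) and origin licensing (9 of 10, 4.42, with lat at 0 counts in all libraries) had the largest medians. The replisome list, which holds polymerases and clamp loader, had a lower one (23 of 23, 2.84), as did cyclins, Cdks and activators (11 of 11, 3.62). The list of cell cycle brakes was mixed: 5 of 7 were higher, among them the Cdk inhibitor dap at 3.48 (SE 0.21), and 2 were lower. These 2 were rap (fzr), the Cdh1-type activator of the anaphase-promoting complex that keeps resting cells in G1, at −1.68 (SE 0.07; 106 ± 2.53 CPM in brain and 34.3 ± 0.893 in S2 cells, SD, n = 3), and Wee1, a kinase that inhibits Cdk1, at −1.35 (SE 0.09).

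The largest differences among these 80 genes were those of mitotic genes that were close to absent in brain. These were Klp61F, polo and tum, which passed the filter on low counts through the S2 libraries only, so their inclusion itself required a difference. Klp61F, the kinesin that separates spindle poles, had 0, 0 and 1 counts in the Gal4 control brain and 310.5, 312 and 335 CPM in mock S2 cells. The ratio of summed counts, scaled to depth, was 9683, with an exact 95% counting interval from 1738 upwards. Polo, a mitotic kinase, had 5, 2 and 2 counts in brain, and its ratio was 1122 (95% counting interval 591 to 2454). Tum, which acts in cytokinesis, had 1, 3 and 3 counts, with a ratio of 1091 (529 to 2713). In the libraries labelled Atx2 RNAi the same direction held for 77 genes, 2 were lower and 1 was not called. Among all 9503 genes tested there, 42.1% were called higher. Of the 77 genes, 18 passed the filter on low counts through the S2 libraries only. The largest log2 fold changes, 10.65, 9.29 and 9.14, were those of Klp61F, tum and the thymidylate synthase Ts, all among these 18. Rap and Wee1 were again the lower ones, at −1.84 and −1.82.

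**Figure D4:**
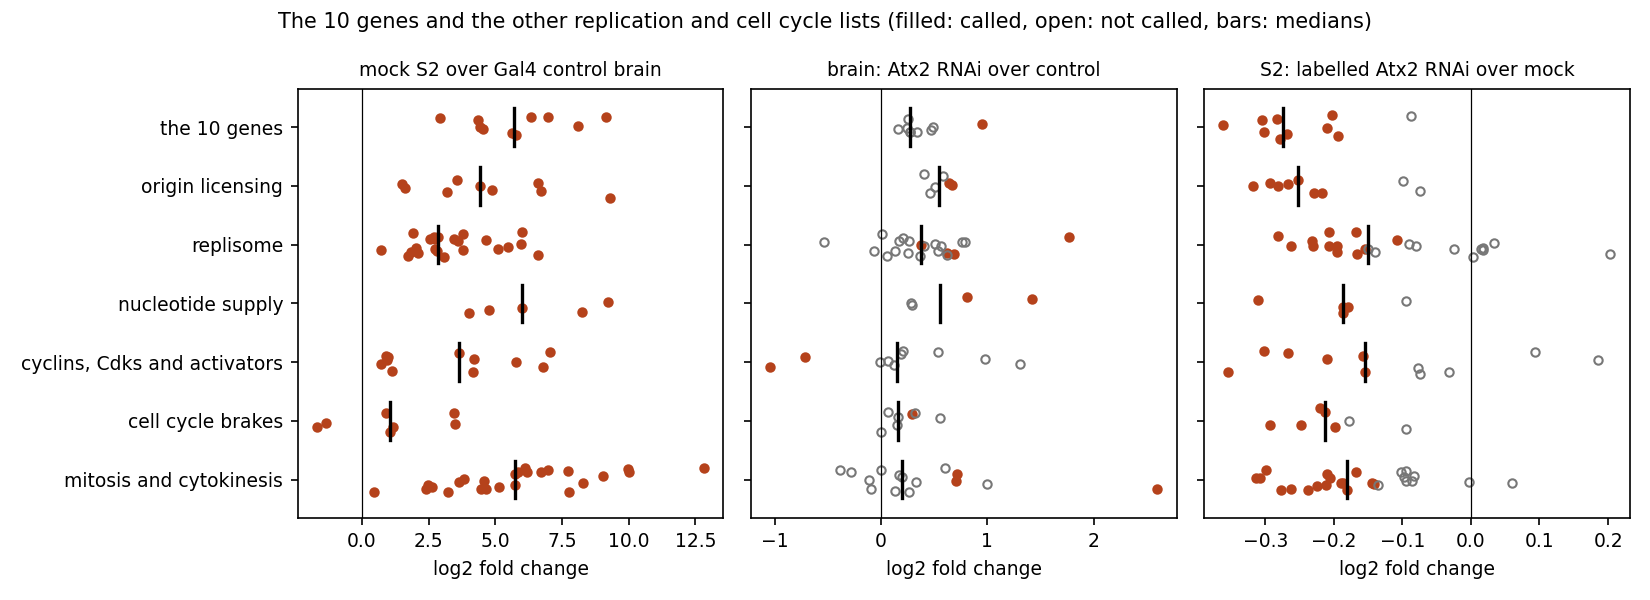
Log2 fold changes of the 10 genes and of 6 lists of other replication and cell cycle genes in 3 comparisons; filled points passed the test, open points did not, and bars mark list medians. The left panel has medians from 1.06 (brakes) to 6.01 (nucleotide supply), and the right panel has no filled point above 0. The horizontal axes of the 3 panels differ.

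In brain, Atx2 RNAi left most of these genes within their spread. Of the 9 that could be tested, 1 was called higher and 0 lower, where 23.1% of 9197 genes were called higher and 18.6% lower by edgeR. At an unadjusted p under 0.05 the counts were the same, 1 and 0, where 4738 of 9197 genes passed in either direction. They were also the same with DESeq2, which called 19.8% of all genes higher. The gene was Mcm3. It stood at 4.72, 3.80 and 2.72 CPM in the Gal4 control brain and at 7.02, 8.07 and 6.17 CPM in the Atx2 RNAi brain, so every RNAi library was above every control. The log2 fold change was 0.95 (SE 0.24; edgeR adjusted p = 0.0171), a 1.93-fold rise, and 31% of all genes had groups apart in this direction. The call was lost without Atx2 RNAi brain 1 (0.96, adjusted p = 0.0552) and without Atx2 RNAi brain 2 (0.86, adjusted p = 0.0646). The opposite-strand gene CG3309 had a log2 fold change of −0.14 (edgeR adjusted p = 0.353).

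The other 8 genes had log2 fold changes between 0.16 (dup) and 0.49 (CycA), with edgeR adjusted p values from 0.163 to 0.637, and in each the groups overlapped. SRPK, on the other strand of dup, was called lower (−0.45, SE 0.13; adjusted p = 0.0236). Mcm6 came closest: it stood at 6.57, 8.70 and 8.75 CPM in the Atx2 RNAi brain, of which 1 library lay inside the control range of 6.18 to 6.71 CPM, and its log2 fold change was 0.34 (SE 0.18; adjusted p = 0.163). It was called in the fit over all 12 libraries (0.31, adjusted p = 0.0365), where 28.9% of all genes were called higher, and with library size alone (0.54, adjusted p = 0.0457), where 33.9% were and where the median of all genes moved by 0.21. CycA stood at 3.25, 6.96 and 5.24 CPM, so that 1 RNAi library was below all controls and the others above. All 9 fold changes were above 0, as were 54.5% of all genes tested, and their median was 0.27 against 0.06 for all genes, but Mcm2, Mcm7 and PCNA passed the filter on low counts through the Atx2 RNAi libraries only. At 7 to 106 counts per control library the SE of these genes was 0.18 to 0.39 on the log2 scale, so changes of this size were not detectable for most of them.

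CycB did not pass the filter on low counts in brain. The control brains had 10, 7 and 7 counts of it and the Atx2 RNAi brains 10, 44 and 5, so a single library carried the difference, and without the filter the log2 fold change was 0.93 (SE 0.76; edgeR adjusted p = 0.429). In that library, Atx2 RNAi brain 2, the germline genes nos and osk had 9 and 15 counts, while both had 0 in the other Atx2 RNAi libraries. In the control libraries nos had 0 and osk had 2, 0 and 2. The summed level of the 6 germline markers was 5.21 to 8.46 CPM in the Atx2 RNAi brain and 8.39 to 12.2 CPM in the controls. Most of that sum was aub, at 5.34 ± 0.826 CPM and 10.1 ± 1.99 CPM (SD, n = 3). The Atx2 RNAi libraries had 6, 11 and 2 counts of vas and 1, 2 and 0 of bam. The controls had 0, 2 and 9 of vas and 0, 0 and 0 of bam. The part of the germline genes in the CycB value was not tested.

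Markers of other cell types moved with the brain response, in which 23.1% of all genes were called higher and 18.6% lower. Neuron markers went from 22110–26345 to 13554–15965 summed CPM (7 of 10 lower) and glia markers from 7803–8835 to 5005–5993 (4 of 7 lower). Fat body markers went from 572–1653 to 11777–26960 summed CPM (5 of 8 higher, 2 lower), and hemocyte markers stood at 906–2260 and 1605–2019, with 5 of the 8 tested higher. Muscle markers went from 361–424 to 93.7–129 summed CPM (6 of 6 tested lower), and photoreceptor markers from 1246–1286 to 1544–2043 (4 of 7 higher). No defining marker of these 6 lists was at 0 in all libraries of either brain group. The part of these cell types in the Mcm3 result was not tested.

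Of the other replication and cell cycle genes, 63 of 81 could be tested in brain, of which 12 were higher and 2 were lower, with a median log2 fold change of 0.30. These shares are no larger than those over all genes, of which 23.1% were higher and 18.6% lower. In fits without one library 63 to 66 of these genes were tested and 4 to 15 were higher. The 15 came without Gal4 control brain 1 and the 4 without Atx2 RNAi brain 2. With library size alone 25 of 63 were higher, against 33.9% of all genes. The fit over 12 libraries called 29 of 80 higher, against 28.9% of all genes. DESeq2 called 8 of 63, against 19.8% of all genes, and the replicate block 6 of 63, against 1641 of 9197 genes. Of the 12, Spc25, Psf2 and RnrS passed the filter on low counts through the Atx2 RNAi libraries only, so their inclusion required a higher value there. Spc25, a kinetochore subunit, had 2, 1 and 3 counts in control and 17, 15 and 16 counts in Atx2 RNAi libraries (log2 fold change 2.60, SE 0.48; edgeR adjusted p = 0.0055). Psf2, a subunit of the GINS complex that binds the MCM ring at the fork, went from 15, 18 and 7 counts to 62, 41 and 71 (1.76, SE 0.40; adjusted p = 0.0110). RnrS, the small subunit of ribonucleotide reductase, went from 12, 15 and 3 counts to 30, 39 and 34 (1.42, SE 0.49; adjusted p = 0.0496). The others were Orc4 and geminin in licensing, CDC45L, RPA3 and Top2 in the replisome, dUTPase, Wee1, aur and barr. The lower ones were Cks30A, a Cdk-binding subunit, at −1.04 (SE 0.28; adjusted p = 0.0206), and cdc2c (Cdk2), the partner of Cyclin E, at −0.71 (SE 0.17; adjusted p = 0.0128), which stood at 16.2 ± 1.05 CPM in control and 9.70 ± 1.87 in Atx2 RNAi libraries (SD, n = 3).

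In the S2 libraries labelled Atx2 RNAi, 9 of the 10 genes were lower than in mock cells and PCNA was not called, where 14.7% of 7567 genes were called lower and 14.4% higher by edgeR. All 10 had groups that did not overlap, as had 25.5% of all genes in this direction. The median of the 10 genes was −0.27, against 0.01 for all genes tested. Decreases of this size, 0.19 to 0.36 on the log2 scale, amount to 1.14-fold to 1.28-fold.

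Dup changed most: it stood at 117, 118 and 129 CPM in mock cells and at 93.4, 95.1 and 90.3 CPM in the libraries labelled Atx2 RNAi, a log2 fold change of −0.36 (SE 0.04; edgeR adjusted p = 1.93e-05). The mitotic cyclins followed. CycA went from 189, 193 and 198 CPM to 155, 163 and 144 CPM (−0.30, SE 0.04), and CycB from 459, 465 and 489 CPM to 374, 384 and 371 CPM (−0.30, SE 0.04). The ring subunits lay close to each other: Mcm2 at −0.28, Mcm5 at −0.28, Mcm3 at −0.27, Mcm6 at −0.21 and Mcm7 at −0.20, each with an SE of 0.04 or 0.05. CycE was at −0.19 (SE 0.05; edgeR adjusted p = 0.0040). The clamp was the exception. PCNA stood at 332, 339 and 364 CPM in mock cells and at 326, 315 and 318 CPM in the libraries labelled Atx2 RNAi, a log2 fold change of −0.09 (SE 0.04; edgeR adjusted p = 0.104), with the highest of these only just below the lowest mock library.

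These S2 calls were lost in one alternative. With brain and S2 libraries in one fit, edgeR called 0 of the 10 genes. At an unadjusted p under 0.05, 7 of the 10 genes were lower, where 1046 of 9771 genes passed in either direction. The log2 fold changes there ran from −0.38 (dup) to −0.11 (PCNA), with SE from 0.07 (Mcm2) to 0.23 (CycB). Over all genes that fit called 8 higher and 1 lower (0.0102% of the genes tested). DESeq2 on the S2 libraries alone called 9 of the 10 lower, and 10.7% of all genes. Hemocyte and S2 line markers moved the other way in the same libraries, from 788–809 to 868–914 summed CPM with 5 of the 8 tested higher. Of all genes 14.4% were called higher by edgeR, and the part of these markers in the result was not tested.

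Of the other replication and cell cycle genes, 50 of the 80 tested were lower and 0 higher (30 not called; median −0.18), against 14.7% and 14.4% of all genes. The fit over 12 libraries called 0 of the 80 lower, with a median of −0.20, and the other alternatives called 41 to 51 lower. By list, 7 of 10 licensing genes, 12 of 23 replisome genes, 4 of 5 of nucleotide supply, 6 of 11 cyclins and partners, 5 of 7 brakes and 16 of 25 mitotic genes were lower. CycB3, another mitotic cyclin, led at −0.35 (SE 0.04; edgeR adjusted p = 2.28e-05), followed by the licensing and fork factor Mcm10 at −0.32 and the condensin subunit glu at −0.31 (SE 0.05 for each).

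**Figure D5:**
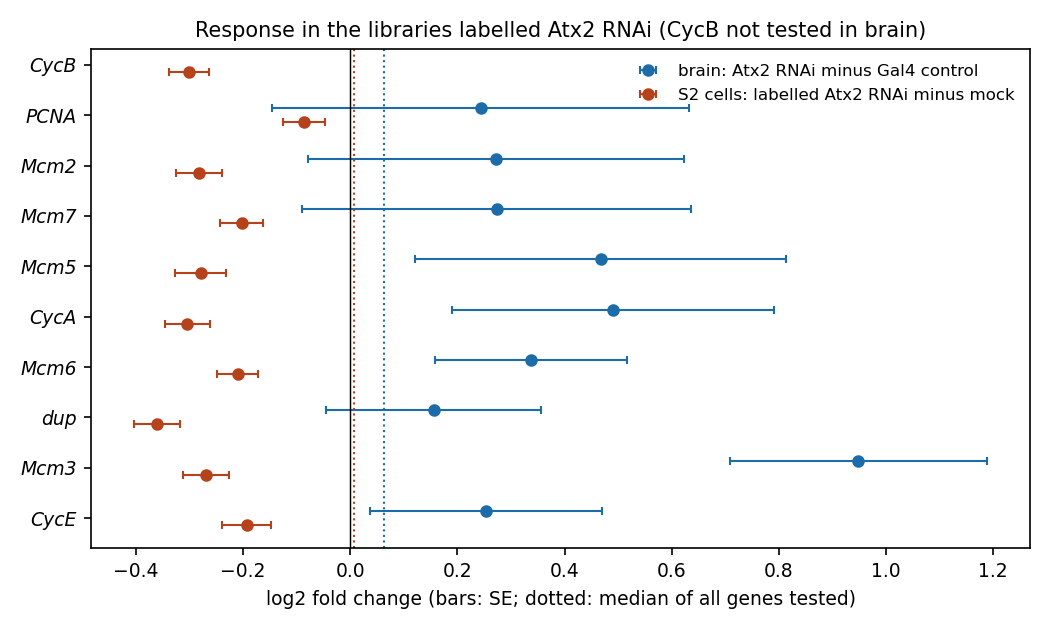
Log2 fold change of the libraries labelled Atx2 RNAi over their controls in brain (blue) and S2 cells (red) for the 10 genes, with SE bars; dotted lines are the medians of all genes tested. The S2 points lie between −0.36 and −0.09 with short bars, and the brain points between 0.16 and 0.95 with long ones, and CycB has no brain point.

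Whether the response differed between brain and S2 cells was tested as an interaction over all 12 libraries, the same ones as in the comparisons above. It was higher in brain for 4 of the 10 genes (16.6% of 9771 genes were called higher and 8.84% lower by edgeR): Mcm3, with a difference of 1.23 (SE 0.19; adjusted p = 7.77e-04), CycA, with 0.79 (SE 0.26; adjusted p = 0.0451), Mcm6, with 0.55 (SE 0.14; adjusted p = 0.0121), and dup, with 0.52 (SE 0.16; adjusted p = 0.0331). The S2 side of each rests on libraries in which the Atx2 count went against the label, and that count need not stand for Atx2 mRNA. Source and batch cannot be told apart here either. Mcm3 and Mcm6 kept the call in 18 of 18 alternatives, while dup lost it in 12 and CycA in 11. For the other genes the difference was 0.76 for Mcm5 (SE 0.27; adjusted p = 0.0608), 0.57 for Mcm2 (SE 0.33), 0.46 for Mcm7 (SE 0.25), 0.45 for CycE (SE 0.20) and 0.32 for PCNA (SE 0.30). For CycB it was 1.26 (SE 0.69), and −0.13 without Atx2 RNAi brain 2. Of the other listed genes 32 of 80 had a higher response in brain and 1, Cks30A, a lower one (−0.88, SE 0.22; adjusted p = 0.0112). The largest were Spc25 at 2.71, polo at 1.73 and ial (aurB, the Aurora B kinase) at 1.73, of which polo and ial had group means of at most 1.03 CPM in brain. Polo had 5, 2 and 2 counts in the control brains and 7, 18 and 6 in the Atx2 RNAi brains, so it leaned on Atx2 RNAi brain 2.

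Symbols matched to none of the replication and cell cycle lists were ranked by how close their pattern was to that of the 10. The group means of log2(CPM + 0.5) over the 4 groups were centred for each gene. Closeness was the Euclidean distance to the median profile of the 10 genes. RecQ4, a DNA helicase needed in replication, was nearest (distance 0.068; 1.19 ± 0.365 CPM in the Gal4 control brain and 71.8 ± 4.24 in mock S2 cells, SD, n = 3). Next was a symbol shared by subunits of DNA polymerase epsilon (0.179), which were on the replisome list but were left unmatched because they share it. After it came rhi (0.263), edl (0.270) and PH4alphaNE2 (0.272). The last and rhi had group means of at most 0.078 CPM in brain. Among the 10 genes themselves the distance ran from 0.035 for Mcm5 and CycA to 3.01 for CycB, so the profile stood for some of them only.

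TRIBE gave a readout that did not depend on expression level alone: adenosines near a bound Atx2 fusion are edited, and the authors listed a position where 20 or more reads covered it and 15% or more of them were edited. None of the 10 genes was in any of the 12 brain lists, which hold between 74 and 736 genes each, at 15% or at 30%. With at most 11.6 CPM in any brain RNA-seq library, the reads over these genes were few, and absence from a list is no measure of binding. Of the other replication and cell cycle genes, Bub3, a spindle checkpoint protein, had a position at chr3R:29674516 (dm6) edited by 47.4% and 45.5% in the wild-type Atx2 lists and listed in 10 of the 12. E2f (E2f1), the activator of S phase genes, had a position at chr3R:21632284 in both lists of the delta cIDR form (21.4% and 22.7%) and both of the Lsm+LsmAD form (15.4% and 17.4%). Rbf and dnk were each in 1 list, at 15%. In the brain RNA-seq none of these 4 genes was called, with log2 fold changes from 0.13 to 0.29.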

How the data were processed

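Gene counts from 12 RNA-seq libraries and lists of edited positions from 12 TRIBE libraries were used; 9 of 33 samples had no file used here. Groups and replicate numbers come from the labels. The deposited counts are raw reads per gene, which the authors made with STAR on dm6 and HTSeq set to the reverse strand; the annotation they counted on is not given in the sources used here. The deposited edit percent is the share of reads edited at a position, which the authors derived with TopHat2 and their TRIBE pipeline against control libraries, keeping 15% and 20 reads or more. Rows that name no gene (8.23% to 22.0% of reads in no feature) stayed out of totals and tests. Symbols were matched to Ensembl release 115 (99.1%), which gave positions and union exon lengths. The methods name a library kit that keeps strand and one that does not, without saying which made these libraries, so reads of genes overlapping on opposite strands (Mcm3, Mcm7, dup, CycE) may not be separable.

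Counts were tested with edgeR 4.0.16 (R 4.3.3, limma 3.58.1): TMM factors, filterByExpr with a minimum count of 10, the quasi-likelihood test, Benjamini-Hochberg adjustment over all genes tested and a threshold of 0.05. The SE is the log2 fold change divided by the t value that gives the test's p. CPM per library used TMM factors over 9771 genes. DESeq2 1.42.0, other scalings and filters, a replicate block, all 12 libraries in one fit and fits without each library were alternatives. On simulated counts with known changes the edgeR step was tested first. Ratios of summed counts have exact 95% intervals, which cover counting error only. All 12 pairs of replicates differed beyond sampling noise. An exact test of 3 against 3 libraries cannot give p under 0.1. The named genes are the 10, Atx2 and w, the 3 highest and 3 lowest called genes of the other lists with groups apart in each comparison, and the 5 nearest profiles; further list members are named in counts after their values were seen. The 10 genes and the lists were chosen with earlier results of these data known. Of the listed genes, 3 were not matched to 1 symbol. Tables were handled in Python 3.11.15 (pandas 2.3.3, numpy 2.4.6), intervals came from scipy 1.17.1 and plots from matplotlib 3.10.9. Sequences were not used here.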

Additional observations from a re-analysis of the deposited data

Results flagged for a closer look

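The response to the Atx2 RNAi label differed between brain and S2 cells for 4 of the 10 genes by the interaction test over 12 libraries (edgeR adjusted p under 0.05). Among all 9771 genes tested 16.6% were called higher in brain and 8.84% lower. The brain minus S2 difference of the log2 response was 1.23 for Mcm3, 0.55 for Mcm6, 0.52 for dup and 0.79 for CycA. Within brain only Mcm3 was called on its own, where 23.1% of all genes were called higher. Within S2 cells all 4 were called lower in the libraries labelled Atx2 RNAi, as were 14.7% of all genes. The Atx2 count there was higher than in mock cells. That count need not stand for Atx2 mRNA, since the double-stranded RNA given to these cells carries Atx2 sequence. The dup and CycA differences lost their call in 12 and 11 of 18 alternatives.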

How the results depend on the processing

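The 10 genes stayed higher in S2 cells than in brain in all 13 alternatives of each of these comparisons. In brain, 2 of the 10 genes were called higher with library size alone, where CycB was not tested, and in the fit over 12 libraries. Over all genes 33.9% and 28.9% were called higher in these fits. Fits without one library called 0 to 1 of the 10 higher, and over all genes 1388 to 2154 against 2120. Genes called lower over all genes numbered 935 with library size alone against 1712. Without one library the brain value of Mcm7 ran from −6.52e-05 (without Gal4 control brain 1) to 0.53, that of PCNA from −0.037 (without Atx2 RNAi brain 2) to 0.46, and the CycB difference between responses from −0.13 (without Atx2 RNAi brain 2) to 1.71, and none of the negative values was called. In S2 cells, the fit over 12 libraries called 0 of the 10 genes lower, and 8 genes higher and 1 lower in all, against 1091 and 1116; DESeq2 called 685 higher. For the difference of responses 2 to 5 of the 10 genes were called without one library, where 1236 to 1917 genes in all were called higher. With library size alone 6 of the 10 were called, where 2520 genes in all were called higher against 1618. Genes called lower for this difference numbered 864, but 1512 with DESeq2, 441 with library size alone and 537 with the replicate block. The share of calls that were higher moved from 48.4% to 59.9% (controls, library size alone), from 55.3% to 76.9% (brain, library size alone), from 49.4% to 64.6% (S2 cells, upper-quartile factors) and from 65.2% to 85.1% (difference, library size alone) or 47.6% (DESeq2). The causes of these shifts were not tested. Length-scaled group means moved by more than their SD in 32 cases. Library size alone and the longest transcript length were counted as separate cases for each mean. The order of the 10 genes in S2 cells did not change. The count of the 10 genes in TRIBE lists was 0 at 30% as at 15%. Replicate numbers did not pair the samples: deviations of same-numbered libraries correlated between −0.19 and −0.04 in brain and between −0.07 and 0.05 in S2 cells, and the replicate block left the count of the 10 genes called at 1 in brain and 9 in S2 cells. Depth limits the brain values, since 5 of the 10 genes had under 30 counts in each Gal4 control library, and brain replicates differed from each other by more than counting error (chi-square per degree of freedom 24.0 to 64.4, against 1.28 to 6.10 in S2 cells).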
